A study of Ceratotherium simum simum with 6 samples.

Results

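Single-exon copies of multi-exon genes were examined in the granulosa cell transcriptome of the southern white rhinoceros (Ceratotherium simum simum). A copy was a named gene whose transcripts all had 1 exon and whose name also stood on another gene with a transcript of 3 or more exons, here called its parent. Of 40656 genes in the deposited table of positions, 22569 carried a name, 4022 of these had single-exon transcripts only, and 1121 were copies. The rule was read from the gene models alone, without counts. Some of these models were themselves assembled in these data, among them those of 268 copies (23.9%). A gene without a name that lay on the opposite strand of a copy and covered at least 50% of the shorter exonic length was added to the copy. Where a name stood on several multi-exon genes, the most abundant of them served as the parent.

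RNA-seq was done on granulosa cells, which line the ovarian follicle and nurse the oocyte, from 2 wild-type animals, rhino 1 and rhino 2, with 3 libraries each. All cells were labelled as taken in vivo, before in vitro maturation, and no source used here gives the animals' ages. With 1 animal in each group, and nothing to say whether an animal's libraries came from separate follicles or aliquots, every p-value below measures only how far these libraries scatter, and that scatter may be technical. The deposited values were read counts, and CPM is counts scaled to a library total of 1000000.

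Retrocopies arise when a spliced messenger RNA is reverse transcribed by the machinery of LINE elements and inserted elsewhere in the genome, so that the copy lacks the introns of its parent. Genes transcribed strongly in the germ line, above all those of ribosomal proteins, have left many such copies in mammals. Most lack a promoter of their own, although some are transcribed from nearby or host promoters. A shared name and a single exon make a locus a candidate only. Replication-dependent histone genes and olfactory receptor coding sequences are intronless in mammals in any case, and both kinds occur among the copies.

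The copies carried 753 names, of which 614 stood on 1 copy and 139 on several, the latter covering 507 copies. The most repeated name was FV1, on 41 copies, after a mouse gene of endogenous retroviral origin that restricts leukaemia viruses. OR8K3 (an olfactory receptor) stood on 22, VN1R4 (a vomeronasal receptor) on 18, DUT (deoxyuridine triphosphatase) on 15 and RSSA (a ribosomal protein) on 11. Several DUT copies lay near an FV1 copy on the same strand. On scaffold 31, DUT stood at 19435899 to 19436480 and FV1 at 19440063 to 19440914. Whether such neighbours belong to 1 inserted element, and so are no copies of the parents, was not tested. The annotated length had a median of 438 bases and ran from 72 to 3982, and it was a multiple of 3 in 97.9% of copies, so that the models are mostly coding sequences without untranslated regions. A parent transcript of exactly the same length existed for 30 copies (2.68%). Of all copies, 245 (21.9%) lay on the scaffold of a parent and 114 (10.2%) within 100000 bases of it. Some of the latter overlapped a parent. The DEGS2 copy lay inside its parent's span on the same strand, and the CC188 copy shared a boundary with its parent. Such loci may be other models of the parent gene and not separate copies. The scaffold labelled X held 72 copies (6.42%), against 3.13% of the multi-exon genes. Scaffolds labelled Y_ held 59 copies (5.26%), against 1.64%. Introns of named genes held 119 copies (10.6%), with the host on the same strand for 45 and on the opposite strand for 78. The host could carry the copy's own name, as at TRXR1 and PCDGM.

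At the threshold of the rule, 159 copies had a longest parent of 3 exons and stood just inside, and another 460 single-exon genes shared a name only with 2-exon genes and stood just outside. The opposite-strand overlap was at least 70.8% for the models added, and the highest value left out was 20.4%, at MAEL.

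The strand that held the counts differed between libraries, and it decided which copies could be seen. In rhino 1 replicate 1, 99.3% of the counts of multi-exon genes lay on the annotated strand, whereas in the other 5 libraries 0.969% to 1.06% did. Copies that were modelled on both strands followed the same split, with 95.3% of their counts on the annotated strand in rhino 1 replicate 1 (95% Wilson interval 95 to 95.5) and 0.086% to 0.284% in the others. Among the 20 copies with 20 or more counts in every library, none had its counts on the other strand than the multi-exon genes. The lowest annotated-strand shares in rhino 1 replicate 1 were 54.5% for NDUC1, 59.5% for RUXG and 75.7% for T2AG, against a median of 98.8% over 34 copies. Intervals here and below cover counting error only.

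An opposite-strand model existed for 38 copies (3.39%), against 59.9% of 16633 multi-exon genes and 5.31% of 2901 other named single-exon genes. The remaining 1083 copies had none. A count of 0 at these copies in the 5 libraries of the other strand is thus no sign of absent RNA. Whether the missing model itself reflects few reads in those libraries was not tested. The added models had a single exon at 31 copies and were spliced at 7, among them FV1, AQR, THA11 and S35F5. Of the 38 copies, 10 (26.3%) had exactly the length of a parent transcript, against 20 of the 1083 (1.85%). These 10 included RS27 and RL37 of the ribosome, RPAB2 of the RNA polymerases, RUXG of the small nuclear ribonucleoproteins and NDUC1 of respiratory complex I.

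Library totals ran from 672410 to 13288936 counts, and a single count equalled 0.0753 CPM in the largest library (rhino 1 replicate 1) and 1.49 CPM in the smallest (rhino 1 replicate 2). All 8 granulosa markers had counts in every library, and their summed level was 14522 to 24747 CPM in rhino 1 against 8612 to 14061 CPM for rhino 2. Of the 6 oocyte markers, ZP3, ZP2, BMP15, DAZL and DDX4 were at 0 in all libraries. The remaining marker, GDF9, reached at most 3.91 CPM in rhino 1 and was at 0 in rhino 2. The 2 red blood cell markers, of which HBA was at 0, summed to 1963 to 4335 CPM in rhino 1 and 387 to 809 CPM in rhino 2. The 4 endothelial markers, of which CADH5 was at 0, summed to 57.3 to 105 CPM and 169 to 257 CPM. Leukocyte markers summed to at most 51.5 CPM in rhino 1 and 26.9 CPM in rhino 2. The 4 theca and smooth muscle markers, with CP17A and DESM at 0, summed to 297 to 2403 CPM and 567 to 909.5 CPM. Counts in every library were found for 1 red blood cell, 1 endothelial, 1 theca and smooth muscle and 0 leukocyte markers, so these sums rest on few genes. A marker without an opposite-strand model would show almost no counts in the 5 libraries of the other strand. The part of these other cells in the differences between the animals given below was not tested, and in such bulk samples fewer cells of a type and less RNA per cell cannot be told apart.

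Single-exon copies held a small share of each library. In rhino 1 they took 0.419%, 0.267% and 0.294% of the counts in replicates 1, 2 and 3, and in rhino 2 they took 0.309%, 0.34% and 0.33%. The highest and the lowest share were both in rhino 1. The means were 0.327% ± 0.0812 (SD, n = 3) and 0.326% ± 0.0157 (n = 3), and the difference did not pass the two-sided exact permutation test (p = 1, smallest possible 0.1). In the 38 copies modelled on both strands the means were 0.244% ± 0.0577 in rhino 1 and 0.321% ± 0.0154 in rhino 2. Every library of rhino 2 lay above every library of rhino 1, and p was 0.1 in the same exact test. Copies named FV1 held 16%, 8.02% and 3.88% of all copy counts in rhino 2 and 0.384%, 1% and 0.963% in rhino 1. The shares without FV1 were not tested, so the separation cannot be given to the 38 copies in general. The 1083 copies modelled on 1 strand took 0.24% of rhino 1 replicate 1 and 0.00386% to 0.00612% of the other libraries. Without rhino 1 replicate 1 the difference over all copies, rhino 2 minus rhino 1, was 0.046 percentage points in place of -0.000313.

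**Figure D1:**
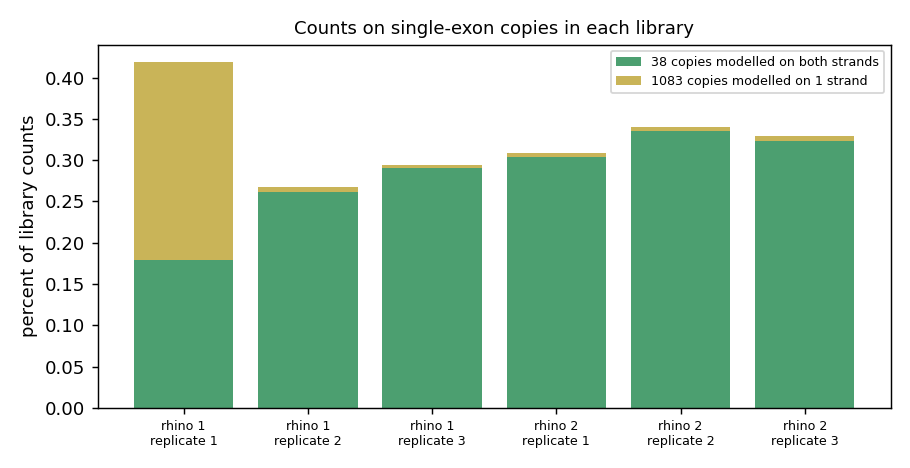
Percent of each library's counts on single-exon copies (vertical axis) in the 6 libraries (horizontal axis), stacked for the 38 copies modelled on both strands and the 1083 modelled on 1 strand. The 1-strand copies make up 0.24% in rhino 1 replicate 1 and at most 0.00612% in any other library.

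Any count was found at 394 copies, and 34 copies had counts in all 6 libraries. Of these 34, 32 were among the copies modelled on both strands. All 38 copies of that kind were assembled in these data, against 230 (21.2%) of the rest. Assembly itself needs reads, so the link between both-strand models and counts in every library was partly fixed in advance. Of the 1083 others, 337 (31.1%) had counts in rhino 1 replicate 1 and 15 to 37 in each of the other libraries. In rhino 1 replicate 1, 68.2% of multi-exon genes and 25.5% of other named single-exon genes had counts.

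Copies with names of cytosolic ribosomal proteins, the structural parts of the ribosome, were the most abundant class. There were 78 of them with 39 names, 42 had counts in rhino 1 replicate 1, and they held 61.5% of that library's copy counts and 38.6% to 49.2% in the others. Levels of an animal are given below in the order of replicates 1, 2 and 3. Rhino 1 replicate 1 was counted mostly over the annotated model and the other 5 libraries over the opposite-strand model. The latter was often longer, at RS6 with 788 bases against 411, so CPM is not like for like between these libraries. The part of model length in differences between libraries was not tested. The RS24 copy (scaffold 14, positions 38690705 to 38691097, minus strand) stood at 184, 317 and 317 CPM across rhino 1 and at 306, 409 and 369 CPM across rhino 2. The RS25 copy (scaffold 7, 2788893 to 2789270, plus strand) lay in an intron of OPCM, a cell adhesion gene, on the same strand. It stood at 182, 149 and 228 CPM across rhino 1 and at 257, 311 and 307 CPM across rhino 2, without overlap of the animals. The RL32 copy (scaffold 35, 23945806 to 23946213, minus strand) stood at 194, 219 and 370.5 CPM across rhino 1 and at 152, 243 and 226 CPM across rhino 2, and the animals overlapped.

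RS27, which had exactly the length of a parent transcript, stood at 99.3, 86.3 and 128 CPM across rhino 1 and at 156, 199 and 216 CPM across rhino 2. RS6 stood at 25.5, 83.3 and 122 CPM across rhino 1 and at 124, 236 and 169 CPM across rhino 2, with its lowest value in the deepest library. RL17, which lay in an intron of GCP60 on the opposite strand, stood at 31.6, 38.7 and 55.9 CPM across rhino 1 and at 72.8, 79.6 and 97.4 CPM across rhino 2. In all 3 of these copies every library of rhino 2 was above every library of rhino 1. RL19 ranged from 63.5 to 124 CPM and RL37 from 29 to 98.1 CPM over the 6 libraries, and their animals overlapped.

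Further ribosomal protein copies had no opposite-strand model and were seen almost only in rhino 1 replicate 1. A copy of RL4 (scaffold 4, 28366751 to 28367993) stood at 267 CPM there and at 0 to 2.07 CPM in the other libraries. A second RL4 copy, on scaffold Y_152, stood at 149.7 CPM. The RL10 copy, in an intron of REST, a transcriptional repressor of neuronal genes, stood at 261 CPM and at 0 elsewhere. RL23A stood at 166 CPM, RS9 at 124 CPM, a second RS24 copy at 114 CPM and RS2, in an intron of RPTOR, at 101 CPM. Of the 1-strand copies of any class, 96 reached 1 CPM in that library, 30 reached 10 CPM and 7 reached 100 CPM. Levels as high as those of the both-strand copies thus occurred at loci without a model on the strand counted in the other 5 libraries. RL27A, in an intron of CUTC, was 1 of only 2 such copies with counts in all 6 libraries, at 85.9 CPM in rhino 1 replicate 1 and 0.656 to 7.44 CPM in the others. The other was DYN3.

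Outside the ribosome, the most abundant copy carried the name of CNN3, calponin 3, an actin-binding protein (scaffold 4, 74140330 to 74141319, plus strand). It stood at 303, 296 and 354 CPM across rhino 1 and at 381, 368 and 442 CPM across rhino 2, the highest mean of any copy. SAHH, named after adenosylhomocysteinase of the methionine cycle, stood at 111, 236 and 269.8 CPM across rhino 1 and at 157, 193 and 229 CPM across rhino 2. UBIM, a ubiquitin-like fusion with a ribosomal protein, varied little, at 129.7, 169.5 and 162 CPM across rhino 1 and at 151, 171 and 185 CPM across rhino 2. The animals overlapped in SAHH and UBIM but not in CNN3.

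EMC3, named after a subunit of the membrane protein insertion complex of the endoplasmic reticulum, was lowest in rhino 1 replicate 1 (33.8 CPM) and highest in rhino 1 replicate 2 (208 CPM). IF5, a translation initiation factor, ranged from 69.9 to 160.1 CPM, and CHPT1, a phosphatidylcholine synthesis enzyme whose copy lay in an intron of FMNL2, from 52.1 to 105 CPM. Both extremes of EMC3 thus came from the same animal, but over models of 219 annotated and 796 opposite-strand bases. MXRA5 ranged from 22 to 83.3 CPM, AQR from 15.2 to 77.3 CPM, and RAP2C, a small GTPase, from 19.9 to 52.6 CPM. Their opposite-strand models were also longer, as at MXRA5 with 3986 against 807 bases and AQR with 4515 against 2082. The AQR copy lay 8554 bases from the gene of the same name and the THA11 copy 3547 bases, the only ones of the 38 copies within 100000 bases of a parent.

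**Figure D2:**
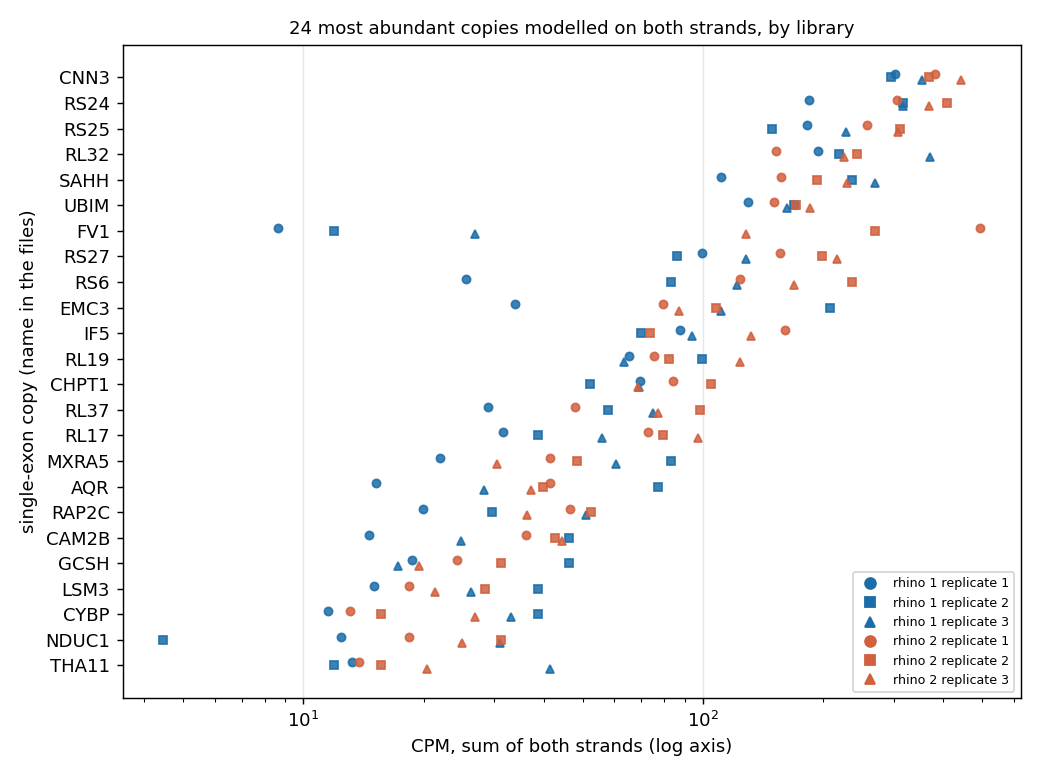
CPM summed over both strands (horizontal log axis) for the 24 most abundant copies modelled on both strands (vertical axis), with 1 point per library, blue for rhino 1 and orange for rhino 2. A value of 0 cannot be drawn on the log axis, and none of these copies had one. The animals are farthest apart at FV1, at 8.65 to 26.9 CPM in rhino 1 and 128 to 493 CPM in rhino 2.

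Detection in rhino 1 replicate 1, the deepest library, differed between classes of names. Of the 41 FV1 copies 38 had counts (92.7%), although 1 of them held 1241 of the FV1 copies' counts over all libraries and the next held 10. Of 18 chromatin copies, among them the histone names H31 and H2B1, 13 had counts (72.2%) but none passed 0.527 CPM. Of 107 olfactory and vomeronasal receptor copies, 10 had counts (9.35%) and none passed 1.73 CPM. All 5 RNA binding copies and all 6 glycolysis copies were at 0, which allows up to 0.226 CPM each (3 counts). The latter included copies of G3P, a glycolytic dehydrogenase whose parent stood at 2256 CPM in the same library. These classes were defined by name patterns, so that CXCR2, a chemokine receptor, fell under the respiratory chain and SRP54, of the signal recognition particle, under RNA binding.

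Of 13 ferritin copies, which carry names of the iron storage protein, 5 had counts in rhino 1 replicate 1. An FRIL copy (ferritin light chain) on scaffold Y_89 stood at 83.1 CPM there and at 0 elsewhere, and the FRIL copy modelled on both strands ranged from 2.84 to 35.7 CPM. The Y_89 copy had 528 bases, the annotated exonic length of its parent, and reads shared with the parent were not separated. In ovarian cells, counts on scaffolds labelled Y_ cannot be read plainly as RNA of a Y chromosome. The translation factors had 6 of 18 copies with counts. Among them EF1A1 stood at 4.52 CPM beside a parent at 12085 CPM, and EF1A3 stood at 16.3 CPM beside a parent with no counts. In the respiratory chain, COX5A reached 18.7 CPM, and among signalling names RAB9A, a small GTPase of endosomes, reached 2.71 CPM, both in rhino 1 replicate 1.

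**Figure D3:**
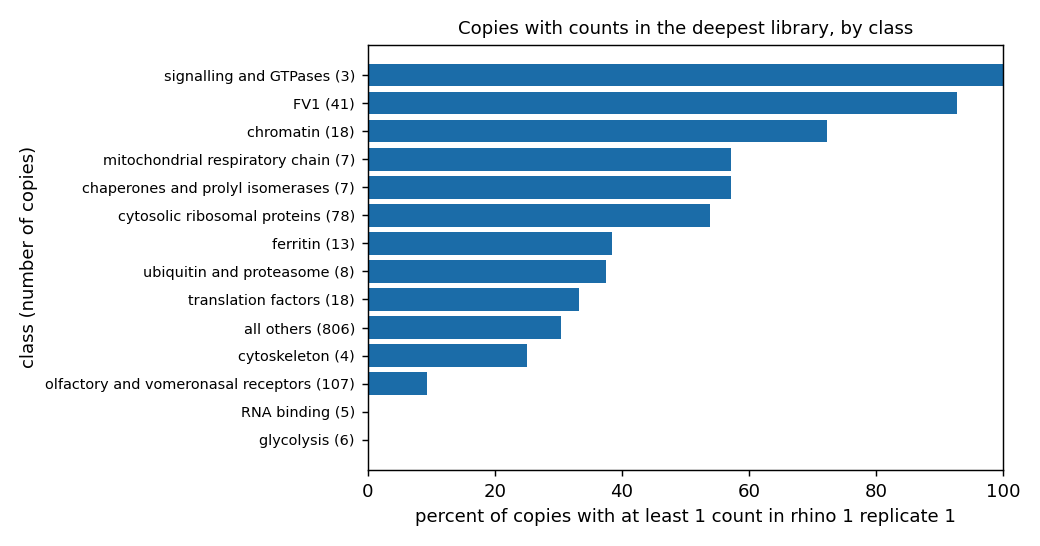
Percent of copies with at least 1 count in rhino 1 replicate 1 (horizontal axis) for each class of names (vertical axis, number of copies in brackets). The share is 92.7% for FV1, 53.8% for cytosolic ribosomal proteins, 9.35% for olfactory and vomeronasal receptors and 0 for glycolysis and RNA binding.

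Detection of a copy was set beside the level of its parent in the same library. Of 276 copies whose parent reached 100 CPM in rhino 1 replicate 1, 39.9% had counts. The share was 39.4% for 472 copies with a parent at 1 to 100 CPM and 20.9% for 373 copies with a parent under 1 CPM. In that library, 475 copies were at 0 beside a parent with counts and 61 had counts beside a parent at 0.

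Reads that fit a copy and its parent equally well cannot be assigned to either from sequence alone, and no source used here says how such reads were counted. Levels of copies with near-identical parents are therefore uncertain. Equal counts were looked for only between copies of the same name, which does not show how reads shared with a parent were counted. In 15 pairs of copies both had 20 or more counts in rhino 1 replicate 1, and in 2 pairs the counts agreed within 5%. The SBSPO copies on scaffolds 11 and Y_289 had 38 counts each and the OR5MB copies on scaffolds 32 and Y_5 had 23 each. Within each of these pairs the lengths were also equal, at 750 and 495 bases, and all 4 copies were at 0 in the other libraries.

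Copies were compared with their parents per length, as CPM per kb of exonic sequence of both strands, in the 34 pairs in which copy and parent were both modelled on both strands and either reached a mean of 1 CPM. The log2 ratio of copy to parent was computed in each library with a pseudocount of 1 CPM per kb. In 19 pairs (55.9%) the copy was lower than its parent and in 5 (14.7%) it was higher, each at an adjusted p of 0.0443 in the exact sign-flip permutation test. That is the value of any pair with all 6 libraries on the same side, and it is the smallest the test can give here. The median log2 ratio over the 34 pairs was -0.77.

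Among the copies far below their parents were CAM2B, with a mean log2 ratio of -4.80 ± 0.84 (SD, n = 6 libraries), FRIL with -3.83 ± 0.47, and PDIA6, a protein disulfide isomerase, with a median of -3.44. PDIA6 was at 0 in rhino 1 replicate 2, so its mean of -4.29 ± 2.12 rests on the pseudocount. The order of the 3 depends on length, since the joined model of CAM2B had 2593 bases against 450 annotated, and without division by length PDIA6 was the lowest at -6.63 and CAM2B stood at -3.88. The ribosomal protein copies RL37 (-3.26 ± 0.17), RS6 (-3.12 ± 0.83), RL17 (-2.71 ± 0.32) and RL19 (-2.65 ± 0.25) stood between 6.28-fold and 9.61-fold below their parents. RS27 stood closer at -0.95 ± 0.16. The ratios of RL37, RL17, RL19 and RS27 varied little between libraries (SD 0.16 to 0.32), and that of RS6 varied more.

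CNN3 was lower than its 7-exon parent in all 6 libraries, at -0.50 ± 0.21 on the log2 scale, with 180.2 to 269 CPM per kb for the copy and 256 to 361 CPM per kb for the parent. UBIM stood at -0.98 ± 0.29 and CHPT1 at -0.38 ± 0.23. All 3 copies were below their parents in every library. RS24 was below its parent in 5 of 6 libraries, at -0.26 ± 0.16, and did not pass (adjusted p = 0.0787, exact permutation test).

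RL32, EMC3, RS25, NDUC1 and RAP2C were the 5 copies above their parents. EMC3 exceeded its 3-exon parent 1.91-fold per kb (log2 0.93 ± 0.36) and RS25 exceeded its 5-exon parent 1.11-fold (log2 0.15 ± 0.08). When CPM was not divided by length, RS25 turned to the other side and was below its parent in all 6 libraries (log2 -0.73 ± 0.08, adjusted p = 0.0425 in the exact test). RAP2C then no longer passed (adjusted p = 0.0817), which left 3 copies above their parents. For RL32 the mean log2 ratio was 7.98 ± 1.28, but the multi-exon gene of this name stood at 0, 0 and 1.38 CPM across rhino 1 and at 3.28, 0 and 6.49 CPM across rhino 2 and spanned scaffold 12 from 52415680 to 52483117 with 9 exons. NDUC1 (log2 3.75 ± 2.75) and RAP2C (log2 2.63 ± 1.45) also had parents listed at 0 in some libraries, as had LSM3 (log2 3.63 ± 2.84, above in 5 of 6 libraries, adjusted p = 0.0787 in the exact test). The size of these ratios rests on the pseudocount.

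SAHH was above its parent in 5 of 6 libraries (log2 0.67 ± 0.59), and MCTS1 and GCSH each in 3 of 6. None of these passed, with adjusted p-values of 0.0787, 0.425 and 0.644 in the exact permutation test. The SAHH result depends on the length used, since the joined model had 1217 bases against 432 annotated. When each library was instead read on the strand that held its counts, over that strand's own model, SAHH was above its parent in 6 of 6 libraries (log2 0.77 ± 0.36, adjusted p = 0.0409 in the exact test). That reading was chosen after seeing the data, and it gave 20 copies below and 6 above. RS24 also passed there, below its parent at -0.38 ± 0.32 (adjusted p = 0.0409, exact test). In rhino 1 replicate 1, where annotated strands alone can be compared, 117 copies had 20 or more counts. Of these, 21 lay above their parent per kb and 8 of the 21 had a parent at 0 counts. Over the copies whose parent had counts, the median was 27.9% of the parent's level per kb. The 8 with a parent at 0 were left out of it.

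**Figure D4:**
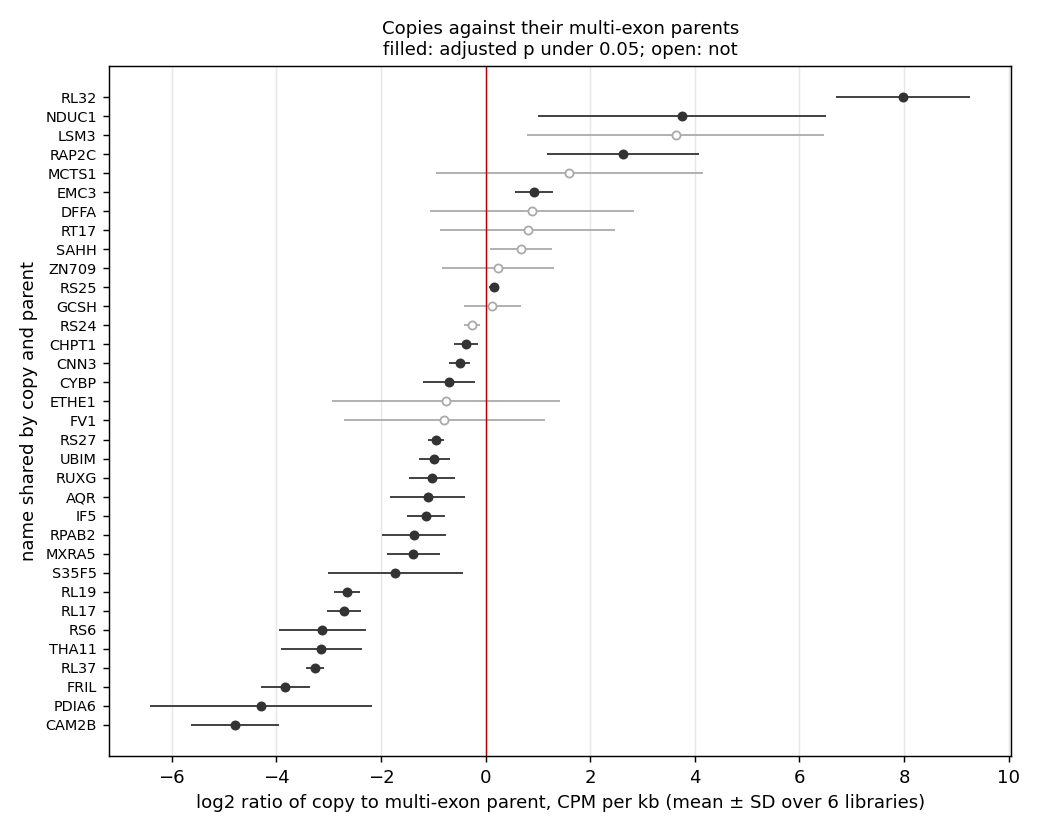
Mean log2 ratio of copy to multi-exon parent in CPM per kb (horizontal axis, bars are the SD over 6 libraries) for 34 names (vertical axis), filled where the adjusted p was under 0.05. Filled points lie to the left of 0 for 19 copies and to the right for 5, from -4.80 at CAM2B to 7.98 at RL32.

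Between the animals, no copy passed edgeR's quasi-likelihood test. Of 8510 loci tested, 20 (0.235%) were called at an adjusted p under 0.05, and 1033 (12.1%) had an unadjusted p under 0.05. The test took in 30 copies, all of them modelled on both strands, of which 0 were called and 4 had an unadjusted p under 0.05. The Wald test of DESeq2 called 3 of the 30, FV1, RL17 and RS27, against a background of 9.43%. The log2 fold change, rhino 2 over rhino 1, was above 0 in 19 of the 30 copies with a median of 0.33, beside 53% and 0.05 over all loci.

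The FV1 copy on scaffold 11 (10371167 to 10372495, minus strand) had the largest difference. It stood at 8.65, 11.9 and 26.9 CPM across rhino 1 and at 493, 270.0 and 128 CPM across rhino 2. The animals were far apart, and the libraries of rhino 2 also differed widely among themselves. The log2 fold change was 4.33 (SE 0.67, edgeR adjusted p = 0.0665), and the adjusted p ran from 1.25e-08 with DESeq2 to 0.368 with the replicate number as a block. Without rhino 2 replicate 1, its highest library, this copy stood at 3.77 (edgeR adjusted p = 0.255). It was the only copy called by edgeR without a filter on low counts (adjusted p = 0.00395, background 0.893% of loci) and among loci modelled on both strands (adjusted p = 0.0303, background 1.66%). The added opposite-strand model had 2 exons and 6700 bases, beyond the 1329 bases annotated as FV1, so that in 5 libraries the counts were taken over a longer stretch than the copy.

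The multi-exon gene named FV1 had 6 exons (scaffold 33, 11606009 to 11612512). It stood at 42.7, 19.3 and 63.5 CPM across rhino 1 and at 51.2, 49.7 and 50.1 CPM across rhino 2. The levels of this parent overlapped between the animals, with a log2 fold change of 0.33 (SE 0.48, edgeR adjusted p = 0.952). Another FV1 copy on scaffold 23 stood at 11.9 CPM in rhino 1 replicate 2 and at no more than 0.151 CPM in the other 5 libraries.

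In 6 of the 30 copies (CNN3, FV1, RL17, RS25, RS27 and RS6) every library of rhino 2 lay above every library of rhino 1, and in 0 the reverse held. Over all loci tested these shares were 10.6% and 13.6%. Of the 8 ribosomal protein copies tested, 7 had a log2 fold change above 0, with a median of 0.65, and RL32 was the exception at -0.24 (SE 0.33). RS6 stood at 1.32 (SE 0.56), RL17 at 1.08 (SE 0.32) and RS27 at 0.95 (SE 0.25), and their edgeR adjusted p-values of 0.429, 0.237 and 0.178 did not pass. Without rhino 1 replicate 1, the library counted mostly over annotated models, they stood at 0.88, 0.92 and 0.93. The median of the ribosomal protein copies was then 0.55. The parents of 7 of the 8 were tested, all 7 were above 0, and their median was 0.69. The other 22 copies had 12 above 0 and a median of 0.07. Red blood cell and granulosa marker sums were lower and endothelial marker sums higher in rhino 2, as given above. Only 1 red blood cell and 1 endothelial marker had counts in every library.

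Over the 26 copies whose parents were also tested, 20 had the sign of their parent. RL17 stood at 1.08 (SE 0.32) and its parent at 0.73 (SE 0.17), and RS27 at 0.95 (SE 0.25) and its parent at 0.84 (SE 0.29). RS25 stood at 0.73 (SE 0.24) beside 0.69 (SE 0.26) for its parent. In these 3 pairs copy and parent differed by less than their standard errors summed, and the part of reads shared by copy and parent was not tested. CAM2B, at 0.67 (SE 0.50) beside -0.34 (SE 0.25), and RAP2C, at 0.52 (SE 0.46) beside -1.24 (SE 1.34), had the sign opposite to their parents. The difference between copy and parent was not tested in this comparison.

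**Figure D5:**
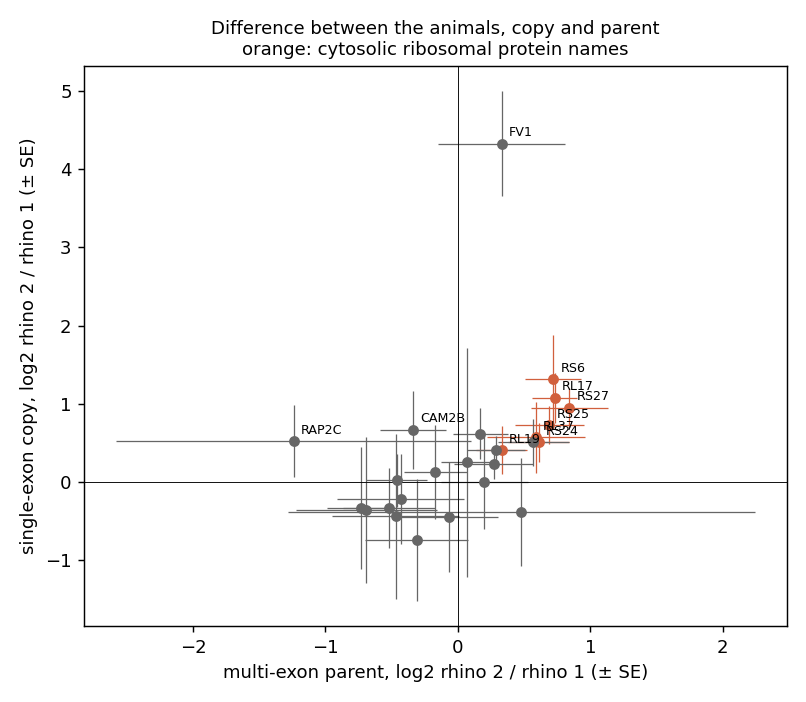
Log2 fold change between the animals (rhino 2 over rhino 1, bars are SE) of the multi-exon parent (horizontal axis) and of the single-exon copy (vertical axis) for 26 names, with ribosomal proteins in orange. The 7 ribosomal pairs lie above 0 on both axes, and FV1 stands apart with 4.33 for the copy and 0.33 for the parent.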

How the data were processed

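The authors deposited unnormalized whole-number read counts, per the file headers: 5 files list them by transcript, and rhino 2 replicate 1 has them by gene. The header of rhino 2 replicate 1 alone was also marked NEW_ANALYSIS, and the meaning of this mark was not given. Trimmomatic, HISAT2 and StringTie were used, per the submitters' processing notes. Their versions, the genome build, the strand setting and the treatment of reads with several alignments were not given in the sources used here. No column belonged to another sample.

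Transcript counts were summed to genes, and opposite-strand models without a name were joined to named genes with bedtools 2.31.1, leaving 26581 loci. Positions are those of the deposited table. CPM used the library total. The animal comparison used edgeR 4.0.16 under R 4.3.3 (with TMM scaling, filterByExpr, glmQLFit, glmQLFTest, two-sided, Benjamini-Hochberg over all loci, threshold 0.05), with DESeq2 1.42.0 as an alternative. Every adjusted p between the animals is from edgeR unless another tool is named. Ratios of copy to parent were tested with an exact two-sided sign-flip permutation over the 6 libraries, and shares of counts by exact permutation over all 20 splits. The edgeR and sign-flip steps were tested on simulated data.

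Members, classes and tests were chosen with earlier results of these data known, and the receptor and FV1 classes were added after the names were seen. The text names the 20 most abundant copies, up to 4 per class, the 10 with the highest median ratio to their parent among copies with a mean of at least 10 CPM, copies past the threshold and their parents. Others, such as the lowest ratios and pairs with equal counts, were chosen after their values were seen. Alternatives were other size factors, no filter, a replicate block, each library left out, other strand joinings, another pseudocount, no division by length, lengths and counts of the strand in use (added after seeing the data), the summed parent, a minimum of 10 CPM and parents with 2 or more exons.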

Additional observations from a re-analysis of the deposited data

How the results depend on the processing

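The difference in the share of counts on copies, rhino 2 minus rhino 1, was -0.000313 percentage points and changed sign to 0.0773 with only copies modelled on both strands and to 0.00466 with parents of 2 or more exons. With each library left out it ran from -0.0301 to 0.046, and its sign turned to 0.046 without rhino 1 replicate 1 and 0.00824 without rhino 2 replicate 1. The counts of copies below and above their parents, 19 and 5, were 22 and 3 without division by length, where RS25 changed sides, and 20 and 6 with lengths and counts of the strand in use. They were 0 and 0 with the genes as deposited, where 5 libraries have few counts on the annotated strand. They were 0 to 0 in each case with a library left out, because the smallest exact p from 5 libraries is 0.0625. All remaining libraries were on the same side for 19 to 21 copies below and 5 to 7 above. Loci called between the animals, 20 in all, numbered 150 without the filter, 583 with DESeq2, 128 among loci modelled on both strands, 0 with the genes as deposited and 0 to 49 with a library left out. They numbered 48 when models without a name were also joined to each other, which was chosen after seeing the data. Copies called, 0 by edgeR, numbered 1 without the filter (FV1), 1 among loci modelled on both strands (FV1) and 3 with DESeq2. With the replicate number as a block 0 loci were called. The deviations of same-numbered libraries correlated at 0.2, 0.132 and 0.00888 for replicates 1, 2 and 3, so the numbers were not taken to pair the samples. The other causes were not tested. Of the 2 genes past the threshold with DESeq2 only, RL17 and RS27 had adjusted p-values of 0.0404 and 0.0162. A low depth limits the copies at few counts, since 3 counts equal 0.226 CPM in the deepest library and 4.46 CPM in the smallest.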

Other observations

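A few copies modelled on 1 strand had the reverse of the usual pattern, with more counts in the 5 libraries than in rhino 1 replicate 1. Of the 7 copies modelled on 1 strand with 10 or more counts in the 5 libraries together, 5 had a higher mean CPM there than in rhino 1 replicate 1. That floor was set on the 5 libraries themselves. SCNAA, named after a sodium channel subunit, stood at 0, 0 and 4.83 CPM across rhino 1 and at 3.94, 1.42 and 17.6 CPM across rhino 2. DYN3, named after a dynamin of membrane fission, stood at 0.602, 5.95 and 4.14 CPM across rhino 1 and at 5.91, 7.11 and 2.78 CPM across rhino 2. KITH, TRIPB and TTC8 had means of 2.95, 2.49 and 2.39 CPM in the 5 libraries and at most 0.151 CPM in rhino 1 replicate 1. In the libraries of the other strand these counts lay on the strand annotated for the copy, unlike those of multi-exon genes.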
